A study of Mus musculus with 6 samples.

Results

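The 36 genes described here encode the enzymes that break down fatty acids in mitochondria (18 genes) and those that take in pyruvate and turn the tricarboxylic acid (TCA) cycle (18 genes). Rows of the gene count matrix were matched to these symbols by Ensembl identifier, and all 36 were found among 55401 rows and passed the filter on low counts. RNA was measured in F4/80+ cells, which the labels call macrophages, isolated from liver tumours of mice that had received Hepa 1-6 cells in the right liver lobe 14 days earlier. Hepa 1-6 is a mouse hepatoma line, so these tumours model hepatocellular carcinoma from 1 cell line. In the 3 control libraries (genotype WT Control) the tumours grew from control cells, and in the 3 Sms-OE libraries from cells made to overexpress Sms by lentivirus. Sms is the gene of spermine synthase, an enzyme of polyamine metabolism. The overexpression was in the injected tumour cells and not in the F4/80+ cells, and no group received a further treatment. The sources used here do not give the strain, age or sex of the mice. Nothing in the labels ties the replicates to separate animals, and the p-values therefore cover only the spread among these libraries, which may be technical.

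The study asked how Sms in tumour cells bears on the macrophages of the tumour, and the comparison described is Sms-OE against control. Macrophages burn fatty acids and pyruvate in the mitochondrion, and fatty acid oxidation is often discussed as a fuel of alternatively activated (M2) macrophages, the state named in the study's title. Long-chain fatty acids enter as carnitine esters, are shortened by repeated rounds of dehydrogenation, hydration, a further oxidation and thiolysis, and yield acetyl-CoA. Citrate synthase joins acetyl-CoA, from fatty acids or from pyruvate, to oxaloacetate, and the TCA cycle oxidises it while passing electrons to the respiratory chain. RNA levels do not measure the flux through either pathway.

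Libraries held 49833764 to 58154006 estimated counts. Levels are given as CPM, counts scaled to a common library size, with TMM factors, in replicate order 1, 2, 3, and averages as mean ± SD (n = 3 in each group). Differences are log2 fold changes, Sms-OE minus control, ± standard error, with adjusted p from edgeR's quasi-likelihood test over all 18277 genes tested. A gene is called higher or lower where the adjusted p is under 0.05. Sms stood at 26.0, 28.3 and 26.2 CPM in control libraries and 32.9, 33.2 and 33.2 CPM in Sms-OE libraries (0.30 ± 0.094, adjusted p = 0.0382), a call that did not survive the removal of any library (adjusted p 0.0719 to 0.122). This is RNA of the F4/80+ fraction, so it is no check of the overexpression in the injected cells. Adgre1, the gene of F4/80 itself, was at 449 ± 105 CPM in control libraries and 569.9 ± 78 CPM in Sms-OE and was not called (0.34 ± 0.17, adjusted p = 0.160). In bulk RNA of this kind, fewer cells of a type and less RNA per cell cannot be told apart.

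The 36 genes were mostly lower in Sms-OE. The test called 28 of them lower and 1 higher, while 7 were not called. Over all genes tested 14.3% were called lower and 12.5% higher (26.9% in both directions). In 30 of the 36 genes every Sms-OE library lay below every control library, an arrangement found in 23.3% of all genes, and in 2 every Sms-OE library lay above, found in 20.8%. The median log2 fold change of the 36 was -0.46, beside -0.00060 over all genes. Members' counts made up 0.258 ± 0.020% of a control library and 0.197 ± 0.013% of an Sms-OE library. These shares did not overlap, and the two-sided exact permutation test gave p = 0.1, the smallest that 3 against 3 allows.

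The pyruvate and TCA enzymes were lower almost throughout, and the fatty acid enzymes were mostly lower, with fewer of them called. Of the 18 pyruvate and TCA genes 17 were called lower and none higher (also 0 higher by DESeq2, by limma-voom and at an unadjusted p under 0.05), with a median log2 fold change of -0.54. Of the 18 beta-oxidation genes 11 were called lower and 1 higher, with a median of -0.39, and 16 lay below 0. Set against the control mean gene by gene, the median beta-oxidation gene lay at -0.37, -0.40 and -0.40 log2 CPM in Sms-OE replicates 1, 2 and 3, and the median pyruvate and TCA gene at -0.40, -0.53 and -0.59. The difference between both sets was not tested. All 3 Sms-OE libraries were low in each set.

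**Figure D1:**
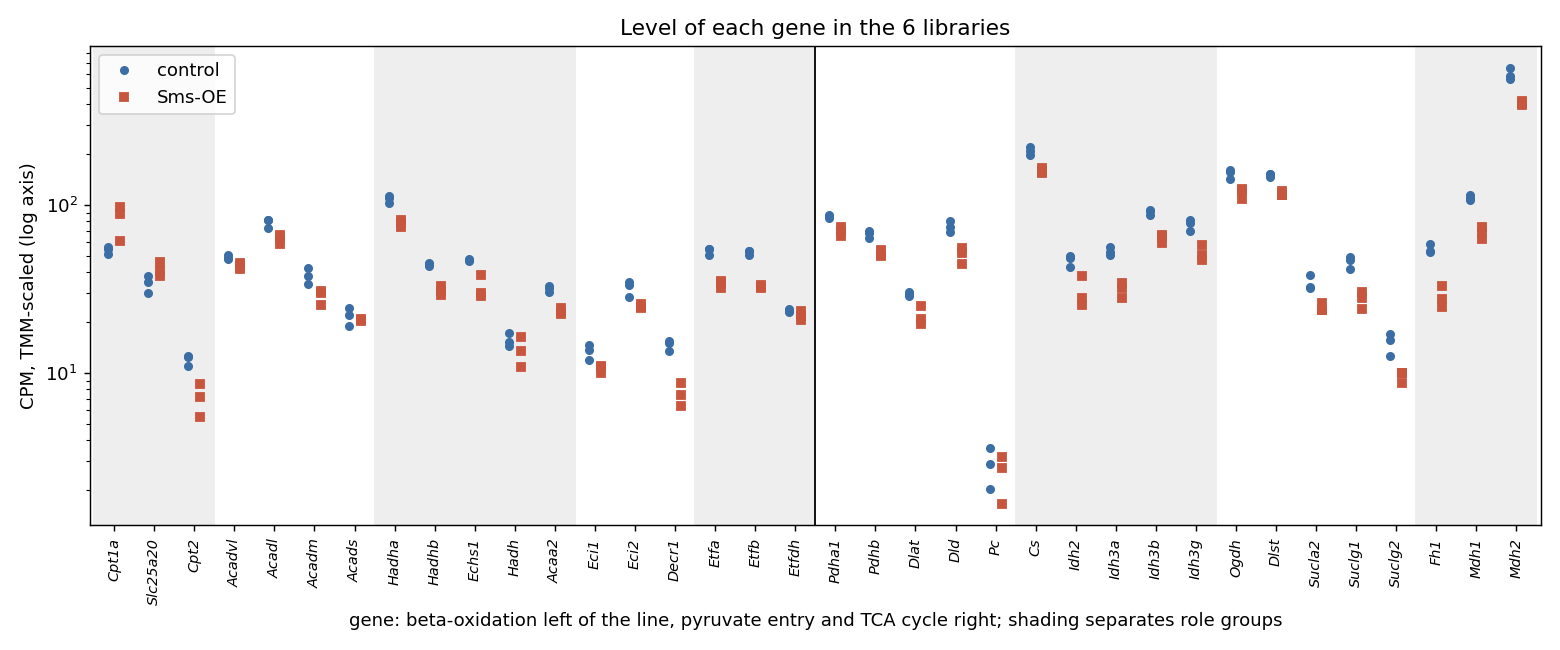
Level of each of the 36 genes in the 6 libraries, as TMM-scaled CPM on a log axis, with control libraries as circles and Sms-OE libraries as squares. Mdh2 stands highest and Pc lowest, and in 30 genes the 3 squares lie below the 3 circles, while for Cpt1a and Slc25a20 they lie above.

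The carnitine shuttle was the only one of the 9 role groups in which a gene rose. Cpt1a, the outer-membrane carnitine palmitoyltransferase that makes acylcarnitine and sets the rate of long-chain fatty acid entry, was higher in Sms-OE, and Cpt2, its inner-membrane partner that turns acylcarnitine back to acyl-CoA, was lower. Cpt1a (chr19:3322334-3385733, plus strand) was at 50.9, 56.3 and 54.7 CPM in control libraries and 88.5, 60.9 and 96.7 CPM in Sms-OE libraries. The lowest Sms-OE value, in replicate 2, lay close above the highest control, and the other two lay well above. The rise was 1.52-fold (log2 0.60 ± 0.15, adjusted p = 0.0149). It was sensitive to single libraries: leaving out control replicate 1, 2 or 3 or Sms-OE replicate 1 or 3 moved the adjusted p to between 0.0527 and 0.0637, while without Sms-OE replicate 2 it was 0.00191 at a log2 of 0.77.

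Cpt2 (chr4:107903981-107923610, minus strand) was at 12.5, 12.6 and 10.96 CPM in control libraries and 8.63, 7.15 and 5.49 CPM in Sms-OE libraries, so the groups did not overlap and Sms-OE replicate 3 was lowest. It fell by 0.76 ± 0.18 on the log2 scale (adjusted p = 0.0132), a call that needed control replicate 2 (adjusted p = 0.0527 without it). Slc25a20 (chr9:108662088-108684641, plus strand), the carrier that exchanges acylcarnitine for carnitine across the inner membrane, was at 37.7, 34.6 and 29.8 CPM in control libraries and 40.3, 37.8 and 45.8 CPM in Sms-OE libraries. All 3 Sms-OE values lay above the controls, but by a margin of only 37.8 against 37.7 CPM at the closest, and the gene was not called (0.28 ± 0.12, adjusted p = 0.105). With offsets for gene length and GC content it was called higher (0.43, adjusted p = 0.0268). A stretch of 227 bases in its transcript is 96.5% identical to Tnfrsf22, whose counts reached 25.7% of those of Slc25a20, so reads could be split between them. Slc25a20 also shares stretches of 366 bases, 98.1% to 98.9% identical, with many other transcripts. Each of those held at most 1.86% as many counts.

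The shift within the shuttle can be read inside each library as a ratio of levels per kilobase of transcript, which no scaling between libraries touches. Cpt1a over Cpt2 was 2.24, 2.45 and 2.75 in the controls and 5.63, 4.68 and 9.69 in Sms-OE. All 3 Sms-OE ratios exceeded all 3 controls, with replicate 3 the highest. Slc25a20 over Cpt2 was 2.60, 2.36 and 2.34 in the controls and 4.03, 4.57 and 7.20 in Sms-OE, again without overlap. Cpt1a over Slc25a20 was 1.02 ± 0.16 in the controls and 1.26 ± 0.20 in Sms-OE, and there the groups overlapped, since Sms-OE replicate 2 fell among the controls.

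The upstream stretches of these 3 genes are shown because the genes of 1 short pathway moved in opposite directions. They come from RefSeq (GRCm38.p6), are written 5′ to 3′ on the gene's strand and hold no annotated exon, ending 16, 48 and 21 bases before the RefSeq start of Cpt1a, Slc25a20 and Cpt2. The Cpt1a stretch lies inside the gene as GENCODE draws it, after the start of a longer transcript. Capitals mark a match to CCGGAAG, the core read by ETS factors such as GABPA, on either strand. The Cpt1a stretch is chr19:3323051-3323284, plus strand, that of Slc25a20 chr9:108661886-108662087, plus strand and that of Cpt2 chr4:107923611-107923839, minus strand.
Cpt1a: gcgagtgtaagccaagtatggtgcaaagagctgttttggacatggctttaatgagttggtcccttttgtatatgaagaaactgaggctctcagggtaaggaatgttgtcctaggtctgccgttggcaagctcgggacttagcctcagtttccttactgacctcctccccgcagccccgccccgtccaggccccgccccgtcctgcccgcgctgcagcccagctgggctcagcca
Slc25a20: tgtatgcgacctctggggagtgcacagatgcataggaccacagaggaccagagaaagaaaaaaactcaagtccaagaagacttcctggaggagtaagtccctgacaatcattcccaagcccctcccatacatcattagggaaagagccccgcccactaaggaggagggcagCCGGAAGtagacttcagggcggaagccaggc
Cpt2: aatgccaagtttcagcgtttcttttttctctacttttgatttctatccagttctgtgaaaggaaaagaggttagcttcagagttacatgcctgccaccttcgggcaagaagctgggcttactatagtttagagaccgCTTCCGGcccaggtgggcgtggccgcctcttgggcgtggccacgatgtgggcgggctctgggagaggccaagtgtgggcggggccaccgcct
The ETS core is present before Slc25a20, which was not called, and before Cpt2, which was lower, and is absent from the Cpt1a stretch. A window from 250 bases before to 50 after the start was matched for 33 of the 36 genes in RefSeq, which gave 39 windows, since a gene can have several starts. In these 5 genes (Cpt2, Dlst, Idh3b, Idh3g, Slc25a20) held CCGGAAG, in 12.8% of the 39 windows, beside 8.86% of the 32851 windows of all genes. Neither the extended site of oestrogen-related receptors nor the direct repeat read by PPAR with RXR was found in any member's window, on either strand, beside 1.28% and 0.0396% of all windows. The NRF1 motif was found in 4 members (Dld, Etfb, Etfdh, Sucla2), in 10.3% of the 39 windows, beside 4.6% of all. The E-box CACGTG was in 10.3% of member windows, from 2 genes, and 7.15% of all windows, and CCAAT in 56.4% and 37.4%. No binding was measured in these data.

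**Figure D2:**
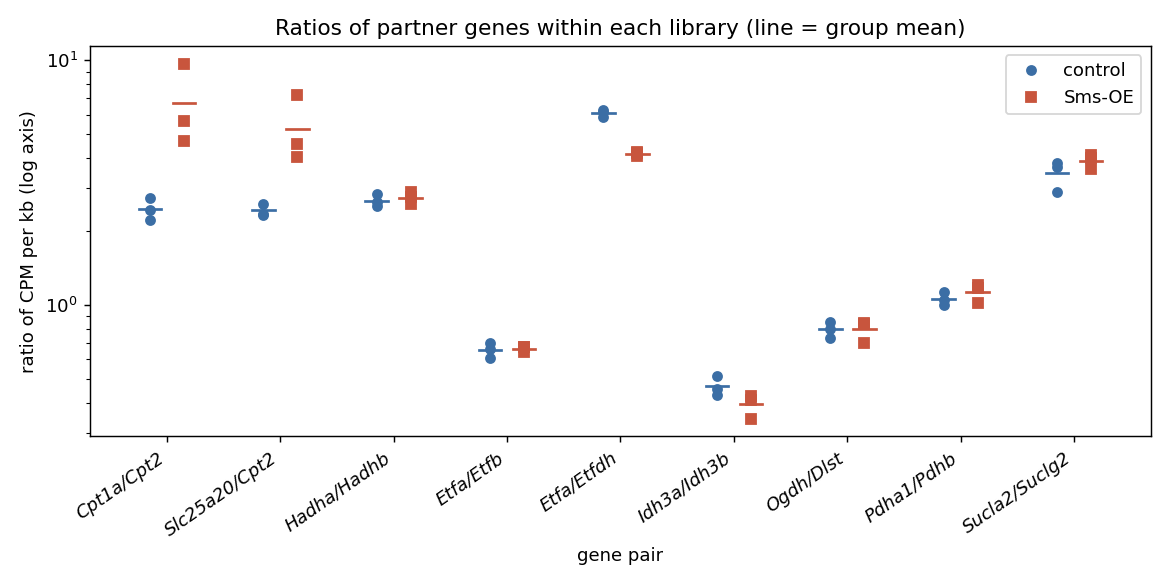
Ratios of partner genes within each library, as CPM per kilobase of one gene over the other on a log axis, with control libraries as circles, Sms-OE libraries as squares and group means as lines. The Cpt1a to Cpt2 and Slc25a20 to Cpt2 ratios are higher in all 3 Sms-OE libraries, while Hadha to Hadhb, Etfa to Etfb and Ogdh to Dlst overlap.

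The acyl-CoA dehydrogenases, which take the first pair of electrons from the acyl chain and differ in chain length, changed by modest amounts. Acadl, for long chains, and Acadm, for medium chains, were called lower, while Acadvl, for very long chains, and Acads, for short chains, were not called. Acadl (chr1:66830839-66863277, minus strand) was at 73.1, 81.6 and 81.6 CPM in control libraries and 58.7, 66.3 and 63.4 CPM in Sms-OE libraries, with no overlap (-0.33 ± 0.088, adjusted p = 0.0218). Acadm (chr3:153922357-153944632, minus strand) was at 33.7, 37.7 and 42.4 CPM in control libraries and 30.0, 30.6 and 25.5 CPM in Sms-OE libraries. The Acadm groups were also separate (-0.40 ± 0.12, adjusted p = 0.0298). Both calls depended on which libraries were in the fit. The Acadl call was lost without control replicate 2 or 3 or Sms-OE replicate 1 or 3 (adjusted p 0.0535 to 0.0878), and Acadm without control replicate 2 or 3 or Sms-OE replicate 3 (adjusted p 0.0800 to 0.0990). Acadvl went from 48.7 ± 1.4 to 43.3 ± 1.6 CPM (-0.17 ± 0.084, adjusted p = 0.166), with each Sms-OE value below each control. It overlaps Dvl2 on the other strand by 256 bases, and Dvl2 held up to 64.6% as many counts, so that reads could be exchanged if strand was not used. Acads stood at 21.8 ± 2.6 CPM in control libraries and 20.7 ± 0.19 CPM in Sms-OE (-0.074 ± 0.12, adjusted p = 0.692), and its groups overlapped.

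The steps that follow, hydration of the double bond, oxidation of the hydroxyl group and thiolysis, were lower in 4 of 5 genes. Hadha and Hadhb encode the alpha and beta subunits of the mitochondrial trifunctional protein, which performs all 3 of these steps on long chains. Hadha was at 109, 113 and 103 CPM in control libraries and 81.2, 74.2 and 78.2 CPM in Sms-OE libraries. Hadhb was at 45.4, 43.6 and 44.3 CPM in control libraries and 30.7, 29.3 and 33.0 CPM in Sms-OE libraries. In both, the Sms-OE libraries were all below the controls and close to each other. The falls were of like size, -0.48 ± 0.082, adjusted p = 0.00278 for Hadha and -0.52 ± 0.091, adjusted p = 0.00307 for Hadhb, and the ratio of Hadha to Hadhb per kilobase was 2.67 ± 0.16 in the controls and 2.75 ± 0.15 in Sms-OE, which differ by less than the spread between replicates.

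Hadha (chr5:30118304-30155162, minus strand) and Hadhb (chr5:30155248-30184593, plus strand) lie head to head, with 85 bases between their annotated starts. Part of the sequence between them is shown because it lies between the annotated starts of both genes, whose RNAs fell by like amounts. The stretch of 68 bases nearest Hadha, chr5:30155163-30155230, minus strand, holds no annotated exon and ends 182 bases before the RefSeq start of Hadha. The bases nearest Hadhb are not part of it. It reads as follows.
Hadha and Hadhb: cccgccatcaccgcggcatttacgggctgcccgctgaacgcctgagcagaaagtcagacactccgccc
None of the 6 motifs searched was found in it.

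Echs1 (chr7:140105710-140116476, minus strand), the short-chain enoyl-CoA hydratase, was at 46.8, 47.8 and 46.5 CPM in control libraries and 38.3, 29.8 and 28.6 CPM in Sms-OE libraries, with the lowest value in Sms-OE replicate 3 and no overlap (-0.54 ± 0.12, adjusted p = 0.00847). Acaa2, the mitochondrial thiolase that splits off acetyl-CoA, went from 31.7 ± 1.1 to 23.3 ± 0.94 CPM and was called lower (-0.44 ± 0.097, adjusted p = 0.00852). Hadh, which oxidises short and medium 3-hydroxyacyl-CoA, stood at 15.7 ± 1.5 CPM in control libraries and 13.5 ± 2.7 CPM in Sms-OE, with overlapping groups, and was not called (-0.21 ± 0.16, adjusted p = 0.380).

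The auxiliary enzymes handle double bonds that the standard rounds cannot. Decr1 (chr4:15917240-15945507, minus strand), the 2,4-dienoyl-CoA reductase needed for polyunsaturated fatty acids, had the largest fall of all 36 genes, -0.97 ± 0.16, adjusted p = 0.00206, or 1.96-fold lower. Its values were 15.5, 13.6 and 15.1 CPM in control libraries and 8.76, 7.37 and 6.38 CPM in Sms-OE libraries, with each Sms-OE library far below each control. Eci2 (chr13:34977748-35027096, minus strand), an enoyl-CoA isomerase, was at 34.8, 28.3 and 33.4 CPM in control libraries and 24.3, 25.7 and 24.6 CPM in Sms-OE libraries. These groups were separate but close, and the gene was called lower (-0.37 ± 0.11, adjusted p = 0.0313), though not without control replicate 1 or 3 or Sms-OE replicate 1 or 3 (adjusted p 0.0719 to 0.108). Eci1, the related isomerase, went from 13.4 ± 1.3 to 10.6 ± 0.51 CPM and missed the threshold (-0.34 ± 0.14, adjusted p = 0.0921).

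The electron transfer flavoprotein collects electrons from the acyl-CoA dehydrogenases, and its subunits fell together while the enzyme that receives them did not pass the test. Etfa (chr9:55454508-55512243, minus strand), the alpha subunit, was at 54.6, 54.8 and 50.4 CPM in control libraries and 35.3, 34.2 and 32.2 CPM in Sms-OE libraries. Etfb (chr7:43444083-43457800, plus strand), the beta subunit, was at 53.0, 50.1 and 53.3 CPM in control libraries and 33.4, 32.5 and 32.2 CPM in Sms-OE libraries. Neither gene had any overlap between the groups, and the 3 libraries of each group lay close together. The differences were -0.65 ± 0.089, adjusted p = 0.00101 for Etfa and -0.67 ± 0.085, adjusted p = 0.000723 for Etfb. Etfdh, the inner-membrane dehydrogenase that passes these electrons to ubiquinone, stood at 23.5 ± 0.49 CPM in control libraries and 21.9 ± 1.4 CPM in Sms-OE with overlapping groups (-0.10 ± 0.10, adjusted p = 0.529). Etfa over Etfb per kilobase was 0.656 ± 0.048 in the controls and 0.664 ± 0.020 in Sms-OE, whereas Etfa over Etfdh was 6.28, 6.14 and 5.87 in the controls and 4.06, 4.22 and 4.19 in Sms-OE. The latter ratio was lower in all 3 Sms-OE libraries.

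The stretches before Etfa (chr9:55512244-55512493, minus strand) and Etfb (chr7:43443822-43444071, plus strand) are shown as those of the 2 subunits of 1 protein, whose RNAs fell by like amounts. Capitals mark a match to the motif of NRF1, a regulator of mitochondrial genes.
Etfa: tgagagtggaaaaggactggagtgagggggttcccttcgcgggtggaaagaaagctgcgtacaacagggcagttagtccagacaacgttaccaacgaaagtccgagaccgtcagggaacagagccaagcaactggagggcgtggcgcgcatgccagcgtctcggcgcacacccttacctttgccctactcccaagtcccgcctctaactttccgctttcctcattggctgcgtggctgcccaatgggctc
Etfb: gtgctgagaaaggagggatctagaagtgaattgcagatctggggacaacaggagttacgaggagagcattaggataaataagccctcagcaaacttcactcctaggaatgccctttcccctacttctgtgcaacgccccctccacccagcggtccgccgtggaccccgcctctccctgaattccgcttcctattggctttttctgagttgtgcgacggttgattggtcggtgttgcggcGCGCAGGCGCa
The NRF1 letters are present before Etfb and absent before Etfa. Etfdh, which was not called, holds them in its window as well.

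In pyruvate entry, RNA was lower for every member gene of the pyruvate dehydrogenase complex, which turns pyruvate into acetyl-CoA. Dld (chr12:31331277-31351453, minus strand), the dihydrolipoamide dehydrogenase that this complex shares with the 2-oxoglutarate complex, had the largest fall of the group and was at 74.4, 79.8 and 69.1 CPM in control libraries and 51.9, 55.5 and 44.2 CPM in Sms-OE libraries (-0.56 ± 0.10, adjusted p = 0.00418). Pdhb (chr14:8165996-8173025, minus strand), the E1 beta subunit, was at 64.0, 68.1 and 69.6 CPM in control libraries and 51.2, 53.8 and 49.7 CPM in Sms-OE libraries, without overlap (-0.38 ± 0.083, adjusted p = 0.00823). Dlat (chr9:50634633-50659780, minus strand), the E2 acetyltransferase, was at 30.5, 28.7 and 29.4 CPM in control libraries and 25.2, 20.9 and 19.6 CPM in Sms-OE libraries. Its highest Sms-OE value, in replicate 1, lay below the lowest control (-0.43 ± 0.12, adjusted p = 0.0225). Pdha1, the E1 alpha subunit, went from 85.3 ± 1.7 to 69.9 ± 4.2 CPM (-0.29 ± 0.082, adjusted p = 0.0279). The Dlat and Pdha1 calls were each lost without control replicate 1, 2 or 3 or Sms-OE replicate 2 or 3 (adjusted p 0.0509 to 0.0774 for Dlat and 0.0522 to 0.0852 for Pdha1). Pdha1 overlaps Map3k15 on the other strand by 426 bases, with Map3k15 at up to 82.5% of its counts, so that reads could be exchanged if strand was not used. Pc, pyruvate carboxylase, which makes oxaloacetate from pyruvate, was the only pyruvate or TCA gene not called, at a low level of 2.83 ± 0.77 CPM in control libraries and 2.51 ± 0.76 CPM in Sms-OE (-0.17 ± 0.31, adjusted p = 0.729).

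The citrate and isocitrate steps were lower in 5 of 5 genes. All 3 subunits of NAD-dependent isocitrate dehydrogenase fell. Idh3a (chr9:54586334-54604661, plus strand), the catalytic alpha subunit, was at 56.5, 50.6 and 52.2 CPM in control libraries and 34.3, 27.9 and 32.1 CPM in Sms-OE libraries (-0.76 ± 0.10, adjusted p = 0.00101). Idh3b (chr2:130279309-130284547, minus strand) was at 87.1, 93.8 and 91.5 CPM in control libraries and 66.6, 64.5 and 59.7 CPM in Sms-OE libraries (-0.51 ± 0.083, adjusted p = 0.00212). Idh3g (chrX:73778963-73786897, minus strand) was at 81.8, 70.1 and 78.0 CPM in control libraries and 58.0, 50.5 and 46.9 CPM in Sms-OE libraries (-0.57 ± 0.10, adjusted p = 0.00373). In these 3 genes each Sms-OE library was below each control. Idh3a over Idh3b per kilobase was 0.466 ± 0.045 in the controls and 0.393 ± 0.044 in Sms-OE, with the highest Sms-OE ratio close below the lowest control. Cs, citrate synthase, went from 210.1 ± 12 to 161 ± 5.7 CPM (-0.39 ± 0.085, adjusted p = 0.00847), the smallest change of the group. Idh2, the NADP-dependent mitochondrial isocitrate dehydrogenase, went from 47.1 ± 3.6 to 30.5 ± 6.6 CPM (-0.63 ± 0.15, adjusted p = 0.0109).

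The 2-oxoglutarate and succinyl-CoA steps were also lower in 5 of 5 genes. Suclg1 (chr6:73248382-73276911, plus strand), the alpha subunit common to both succinyl-CoA ligases, was at 49.1, 41.7 and 47.3 CPM in control libraries and 30.2, 27.8 and 24.1 CPM in Sms-OE libraries, far apart between the groups (-0.75 ± 0.11, adjusted p = 0.00160). Dlst (chr12:85110833-85134845, plus strand), the E2 succinyltransferase of the 2-oxoglutarate dehydrogenase complex, was at 147, 154 and 152 CPM in control libraries and 114, 120.3 and 115 CPM in Sms-OE libraries, without overlap (-0.37 ± 0.077, adjusted p = 0.00647). Suclg2 (chr6:95473009-95718800, minus strand), the GTP-forming beta subunit, was at 17.0, 12.7 and 15.7 CPM in control libraries and 9.94, 8.67 and 10.0 CPM in Sms-OE libraries, also without overlap (-0.67 ± 0.15, adjusted p = 0.00965). The processed pseudogene Gm15163 is 98.9% identical to Suclg2 over 1302 bases and held up to 23.8% as many counts, so the level of Suclg2 is uncertain. Sucla2, the ATP-forming beta subunit, went from 34.3 ± 3.4 to 24.6 ± 1.4 CPM (-0.48 ± 0.11, adjusted p = 0.00995). Ogdh, the E1 subunit of the 2-oxoglutarate complex, went from 154 ± 9.4 to 118 ± 9.2 CPM (-0.38 ± 0.091, adjusted p = 0.0136), but was not called without control replicate 2 (adjusted p = 0.0600). Ogdh over Dlst per kilobase was 0.796 ± 0.062 in the controls and 0.796 ± 0.083 in Sms-OE, a difference far inside the spread. Sucla2 over Suclg2 was 3.46 ± 0.49 in the controls and 3.90 ± 0.28 in Sms-OE, with overlapping groups.

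In the group of fumarate and malate enzymes, which includes the cytosolic Mdh1, RNA was lower for 3 of 3 genes. Fh1 (chr1:175600374-175625635, minus strand), fumarate hydratase, was at 58.7, 52.6 and 53.5 CPM in control libraries and 33.0, 27.4 and 24.6 CPM in Sms-OE libraries, with Sms-OE replicate 1 the highest of its group yet far below the controls. Its fall, -0.96 ± 0.12, adjusted p = 0.000648, was the largest among the pyruvate and TCA genes, and its adjusted p was the smallest of all 36. Mdh1 (chr11:21556787-21572367, minus strand), the cytosolic malate dehydrogenase, was at 107, 109.8 and 115 CPM in control libraries and 73.7, 62.9 and 68.8 CPM in Sms-OE libraries (-0.69 ± 0.087, adjusted p = 0.000682). Mdh2 (chr5:135778480-135790398, plus strand), the mitochondrial form, was the most abundant of the 36 RNAs, also per kilobase, at 656, 589.8 and 563 CPM in control libraries and 393, 415 and 404 CPM in Sms-OE libraries (-0.58 ± 0.095, adjusted p = 0.00226). Neither Mdh1 nor Mdh2 had overlap between the groups. Fh1 over Mdh2 per kilobase was 0.0545, 0.0544 and 0.0579 in the controls and 0.0512, 0.0402 and 0.0371 in Sms-OE, lower in every Sms-OE library. Mdh2 over Cs was 5.36 ± 0.13 in the controls and 4.71 ± 0.30 in Sms-OE, likewise without overlap.

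Per kilobase of transcript, the levels of the 36 genes spanned from Mdh2, at 375 CPM per kb in the controls and 251 in Sms-OE, to Pc, at 0.682 and 0.604. Cs followed Mdh2 at 70.0 and 53.5 CPM per kb, and Etfb came next in the controls at 58.4. The carnitine shuttle lay low, with Cpt1a at 12.5, Slc25a20 at 12.4 and Cpt2 at 5.07 CPM per kb in the controls. In Sms-OE Cpt2 was at 2.99 CPM per kb. Summed over their genes, the beta-oxidation set gave 714 to 733 CPM in the controls and 569 to 614 CPM in Sms-OE, and the pyruvate and TCA set 1851 to 1986 and 1304 to 1372 CPM.

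**Figure D3:**
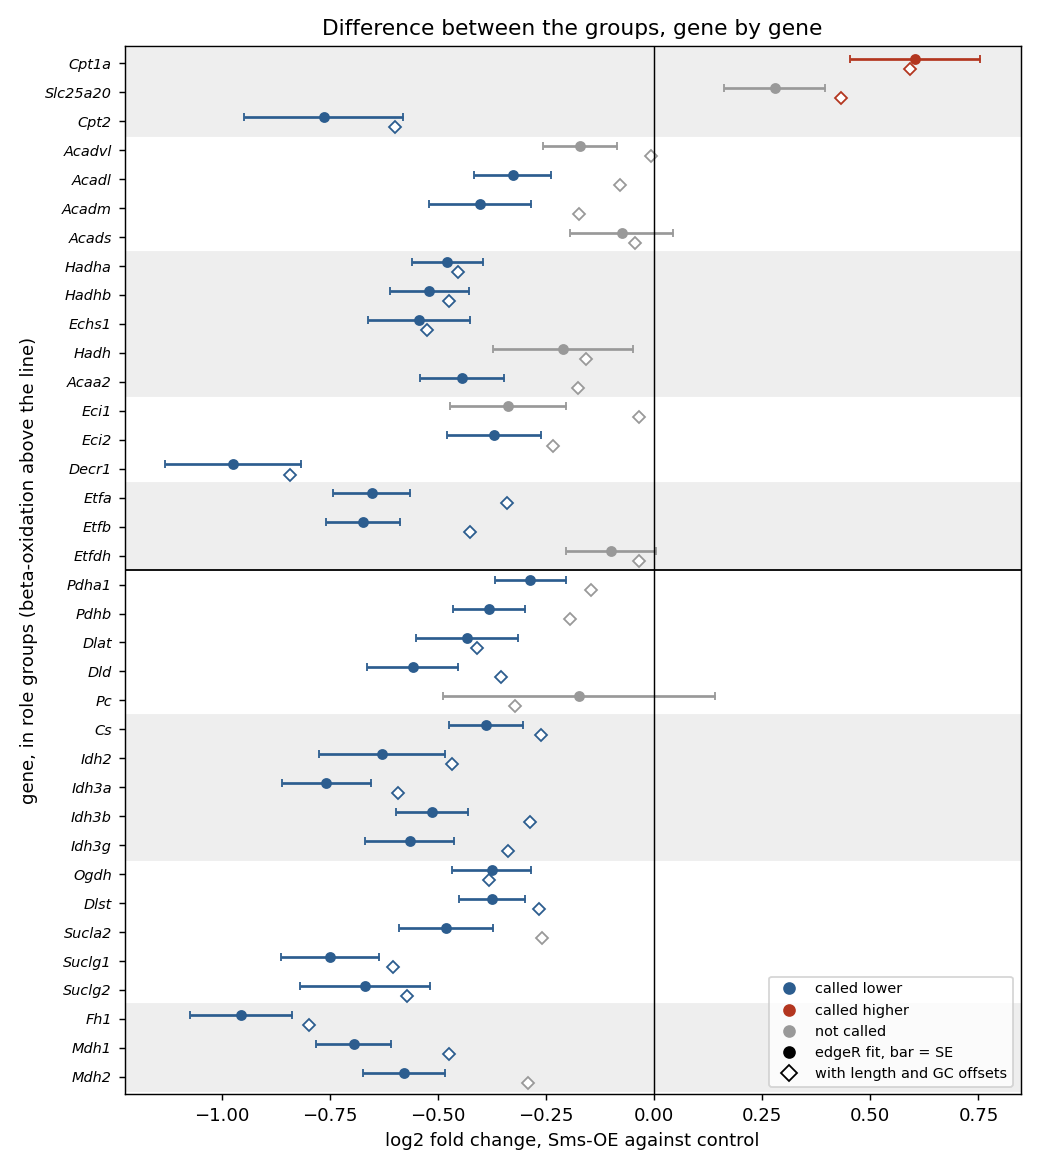
Log2 fold change of each gene in Sms-OE against control, with bars for the standard error and colour for the call, and open diamonds for the fit with offsets for gene length and GC content. Among the filled points, Decr1 and Fh1 lie farthest below 0 at -0.97 and -0.96, and Cpt1a is the only gene called higher at 0.60. The diamonds have medians of -0.18 for beta-oxidation and -0.35 for pyruvate and TCA genes, beside -0.39 and -0.54 for the filled points.

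**Figure D4:**
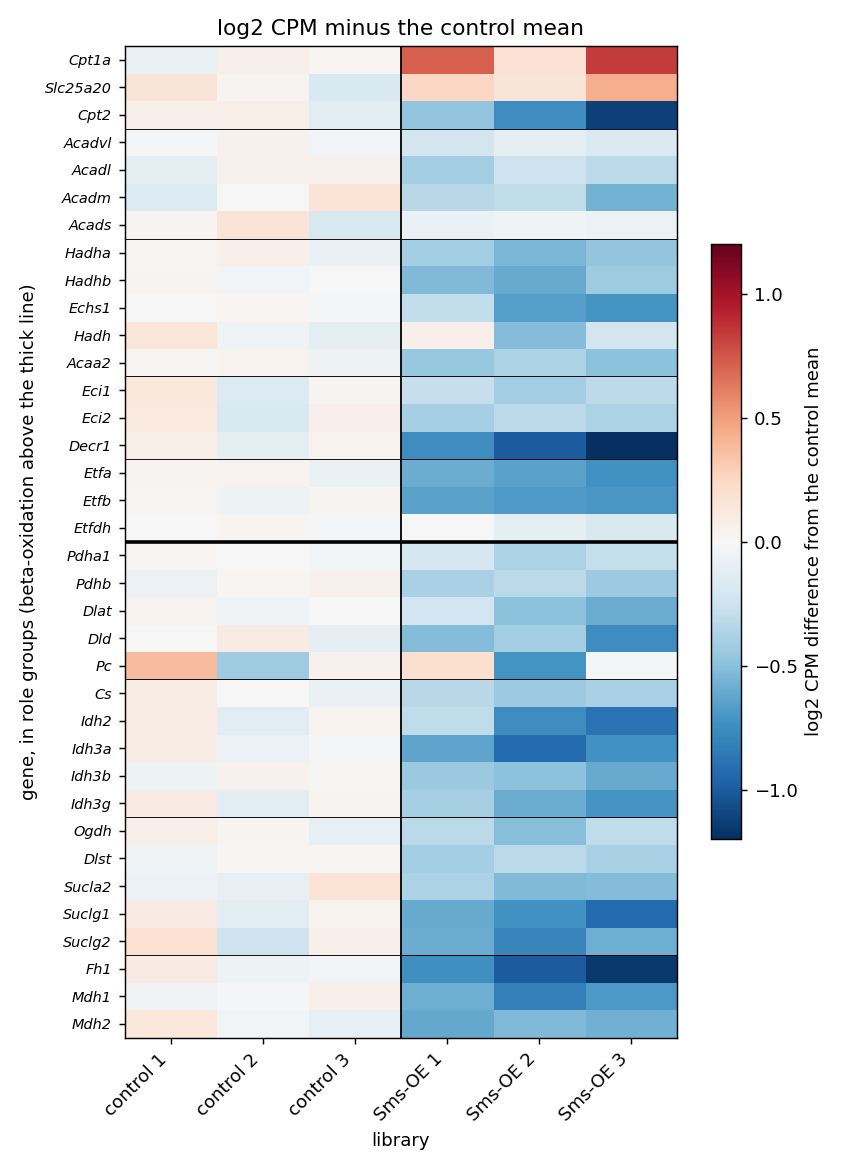
Log2 CPM of each gene in each library minus that gene's control mean, with control libraries left of the thin line and beta-oxidation genes above the thick one. The 3 Sms-OE columns are low over nearly all rows, and the rows of Cpt1a and Slc25a20 are high.

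Of the 28 genes called lower, 21 were called lower in each of the 6 fits that leave out 1 library, 7 of them beta-oxidation and 14 pyruvate or TCA genes. With offsets for gene length and GC content, 20 of the 28 were called lower, and 17 held in both ways (Hadha, Hadhb, Echs1, Decr1, Etfa, Etfb, Dld, Cs, Idh2, Idh3a, Idh3b, Idh3g, Dlst, Suclg1, Suclg2, Fh1 and Mdh1). With these offsets the medians were -0.18 for beta-oxidation and -0.35 for pyruvate and TCA genes, beside 0.064 over all genes, and 34 of 36 genes stayed below 0. Transcript length moved with the calls over the whole table: split into 4 equal bins, 17.7% of the shortest genes and 7.26% of the longest were called lower, and 5.1% and 26.3% higher. Within bins 2 and 3 (1573 to 2817 and 2818 to 4314 bases), which hold 30 of the 36 genes, 14 of 17 and 10 of 13 members were called lower, beside 19.2% and 13.1% of all genes there. In the shortest bin 3 of 4 members were called lower. In the longest bin 1 of 2 members was called lower and the other, Cpt1a at 4317 bases, higher. Large-subunit ribosomal protein genes, taken as 8 abundant short genes outside metabolism, were all called lower as well, with a median of -0.59.

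Other RNAs moved with the groups, and their part in the members' difference was not tested unless stated. Beside the marker counts below, 14.3% of all genes tested were called lower and 12.5% higher, and counts near these shares are not read as results. Mitochondrially encoded RNA made up 5.97 ± 1.1% of control and 2.57 ± 0.50% of Sms-OE counts, without overlap. Hepatocyte markers summed to 1189 to 1601 CPM in the controls and 762 to 1027 CPM in Sms-OE, with 14 of 19 called lower and 0 higher (0 at an unadjusted p under 0.05). Among them Alb fell from 395 ± 61 to 193 ± 45 CPM, Hp was not called at 289 ± 49 CPM in control libraries and 305 ± 23 CPM in Sms-OE, and Cps1, an abundant hepatocyte enzyme named after its values were seen, was at 0.229 to 0.304 CPM in the controls and 0 in Sms-OE. A fit with hepatocyte and hepatoma markers as a covariate called 0 genes in either direction (1326 at an unadjusted p under 0.05, 4 of them members), and the covariate did not overlap between the groups, so it and the group cannot be told apart. Haemoglobin RNA was rich in Sms-OE replicates 2 and 3, at 0.485% and 0.512% of counts, against 0.0103 ± 0.0065% in the controls, and 5 erythroid genes summed to 43.2 to 189 CPM in the controls and 216 to 5042 CPM in Sms-OE, with 0 called (5 higher at an unadjusted p under 0.05). Without both of them, where the lone Sms-OE library is assumed to vary like the controls, 32 of 36 members lay below 0, with 3 beta-oxidation and 6 pyruvate and TCA genes called lower. Macrophage markers summed to 6987 to 7155 CPM in the controls and 7134 to 8338 CPM in Sms-OE, with 2 of 10 higher and 3 lower. Neutrophil markers summed to 5321 to 7864 and 4380 to 6206 CPM, led by Retnlg and Csf3r, with 2 of 10 higher and 0 lower (1 at an unadjusted p under 0.05). Dendritic cell markers summed to 86.5 to 111 and 64.2 to 73.9 CPM, with 3 of 8 lower, Ccr7 and Clec9a among them, and 1 higher. Endothelial markers summed to 143 to 160.2 and 116 to 154 CPM, with 5 of 8 lower and 1 higher. Markers of stellate cells and fibroblasts summed to 65.6 to 83.8 and 101 to 136 CPM, with 3 of 7 higher, Dcn among them, and 0 lower (0 at an unadjusted p under 0.05). T and NK cell markers had 1 of 11 higher and B cell markers 0 of 6 called (1 higher and 1 lower at an unadjusted p under 0.05). The hepatoma markers Afp and Krt18 were not called, and 2 of 7 of that list were lower.

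Genes beside these pathways were taken as 97 genes in 9 lists, of which 90 were tested. Of these 36 were called lower and 3 higher, with a median of -0.26. Over all genes tested 14.3% were called lower and 12.5% higher in the same fit, with a median of -0.00060. These shares also stand beside the counts by list below. Counts near them, such as 1 of 10 or 1 of 15 higher, are not read as results about a list. In the 6 lists below without a rise, DESeq2 and limma-voom called 0 genes higher as well. Without both haemoglobin-rich libraries each of the 9 lists had between 0 and 4 lower genes, with 2 in the list of other mitochondrial oxidation enzymes. In activation and transport of fatty acids 1 of 10 genes rose and 0 fell (0 at an unadjusted p under 0.05), with a median of 0.11. The riser was Slc27a1, a fatty acid transport protein, from 6.97 ± 0.57 to 15.3 ± 1.2 CPM (1.13 ± 0.14, adjusted p = 0.000669), which kept its call without any 1 library. The long-chain acyl-CoA synthetase Acsl1 was not called (0.16 ± 0.10, adjusted p = 0.276).

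Further enzymes of acyl breakdown went with the members. In the list of other mitochondrial oxidation enzymes 7 of 14 were lower and 0 higher (1 at an unadjusted p under 0.05), with a median of -0.48. Without control replicate 2 there were 4 lower, and with length and GC offsets 5 were lower and 2 higher. Pcca and Pccb, the subunits of propionyl-CoA carboxylase, which handles odd-chain and branched remnants, fell together, from 12.04 ± 0.87 to 6.96 ± 0.86 CPM (-0.79 ± 0.16, adjusted p = 0.00515) and from 11.2 ± 1.3 to 5.77 ± 1.3 CPM (-0.96 ± 0.19, adjusted p = 0.00592). Acaa1a, a thiolase of the peroxisome although placed in that list, fell from 109.7 ± 2.0 to 73.3 ± 3.2 CPM (-0.58 ± 0.078, adjusted p = 0.000928). In the peroxisomal list 4 of 10 were lower and 0 higher (1 at an unadjusted p under 0.05), with a median of -0.047. The lower count is fragile, at 2 by DESeq2 and 1 to 3 when any 1 library was left out. There the bifunctional enzyme Hsd17b4 fell (-0.52 ± 0.092, adjusted p = 0.00301). The transporter Abcd3 (-0.52 ± 0.14, adjusted p = 0.0195) lost its call in 3 of the 6 fits that leave out 1 library (adjusted p 0.0575 to 0.0861), and the thioesterase Acot8 (-0.37 ± 0.12, adjusted p = 0.0433) in all 6 (adjusted p 0.0708 to 0.127).

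Regulators were mixed, with 1 of 15 higher, 4 lower and a median of -0.0035. Nr1h3, the oxysterol receptor LXR alpha, fell from 80.8 ± 4.7 to 45.6 ± 2.5 CPM (-0.82 ± 0.088, adjusted p = 0.000326). Ppard, a nuclear receptor for fatty acids, rose from 30.4 ± 3.3 to 42.9 ± 2.8 CPM (0.49 ± 0.11, adjusted p = 0.00862), but not without control replicate 2 (adjusted p = 0.0511). Tfam, which maintains and transcribes mitochondrial DNA, fell from 19.3 ± 1.0 to 13.7 ± 0.60 CPM (-0.49 ± 0.12, adjusted p = 0.0117). Named after their values were seen, the coactivator Ppargc1b and the receptor Pparg were lower (-0.93 ± 0.22, adjusted p = 0.0119, and -0.64 ± 0.16, adjusted p = 0.0167), and lost the call in 1 and 2 of the 6 fits that leave out 1 library (adjusted p 0.0585 and 0.0574 to 0.0593). Ppara and the coactivator Ppargc1a did not pass the filter on low counts.

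Among the ketone body genes, RNA was lower for both enzymes that make acetyl-CoA from ketones. Oxct1, which activates acetoacetate, fell from 81.3 ± 5.1 to 44.2 ± 5.7 CPM (-0.88 ± 0.11, adjusted p = 0.000626) and Acat1, which splits acetoacetyl-CoA, from 49.0 ± 1.8 to 27.4 ± 3.2 CPM (-0.84 ± 0.11, adjusted p = 0.000733). The other 3 of 5 tested were not called, and the median of the list was -0.13. In pyruvate transport and dehydrogenase control 4 of 10 were lower and 0 higher (0 at an unadjusted p under 0.05), and 1 or 2 were lower when any 1 library was left out or by limma-voom. Pdhx, the protein that anchors Dld to the pyruvate dehydrogenase complex, fell from 11.5 ± 0.39 to 6.15 ± 0.85 CPM (-0.90 ± 0.16, adjusted p = 0.00327). The kinase Pdk3 (-0.36 ± 0.10, adjusted p = 0.0230) lost its call in 3 of the fits that leave out 1 library (adjusted p 0.0537 to 0.0892) and the pyruvate carrier Mpc1 (-0.42 ± 0.13, adjusted p = 0.0421) in all 6 (adjusted p 0.0527 to 0.139).

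The remaining TCA enzymes were mostly lower too. Of 8 tested, 6 were lower and 0 higher (0 at an unadjusted p under 0.05), with a median of -0.62. Sdhc and Sdhd, the membrane anchors of succinate dehydrogenase, fell from 77.8 ± 1.2 to 46.1 ± 3.4 CPM (-0.76 ± 0.086, adjusted p = 0.000463) and from 123 ± 4.3 to 70.6 ± 9.3 CPM (-0.79 ± 0.10, adjusted p = 0.000810). Cytosolic partners and carriers were lower in 7 of 12 and higher in 0 (0 at an unadjusted p under 0.05), with a median of -0.50. Without control replicate 1 only 3 were called lower, and without Sms-OE replicate 3 only 4. They were led by the aspartate aminotransferase Got1 (-0.65 ± 0.093, adjusted p = 0.00127), the oxoglutarate carrier Slc25a11 (-0.50 ± 0.081, adjusted p = 0.00213) and the citrate carrier Slc25a1 (-0.69 ± 0.12, adjusted p = 0.00253). In the list of glutamine entry and itaconate genes, the aminotransferase Gpt2 and Aldh18a1, an enzyme of proline synthesis, were called lower (-0.59 ± 0.19, adjusted p = 0.0404, and -0.34 ± 0.11, adjusted p = 0.0413), but lost the call in 5 and 6 of the 6 fits that leave out 1 library (adjusted p 0.0571 to 0.157 and 0.0570 to 0.133).

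**Figure D5:**
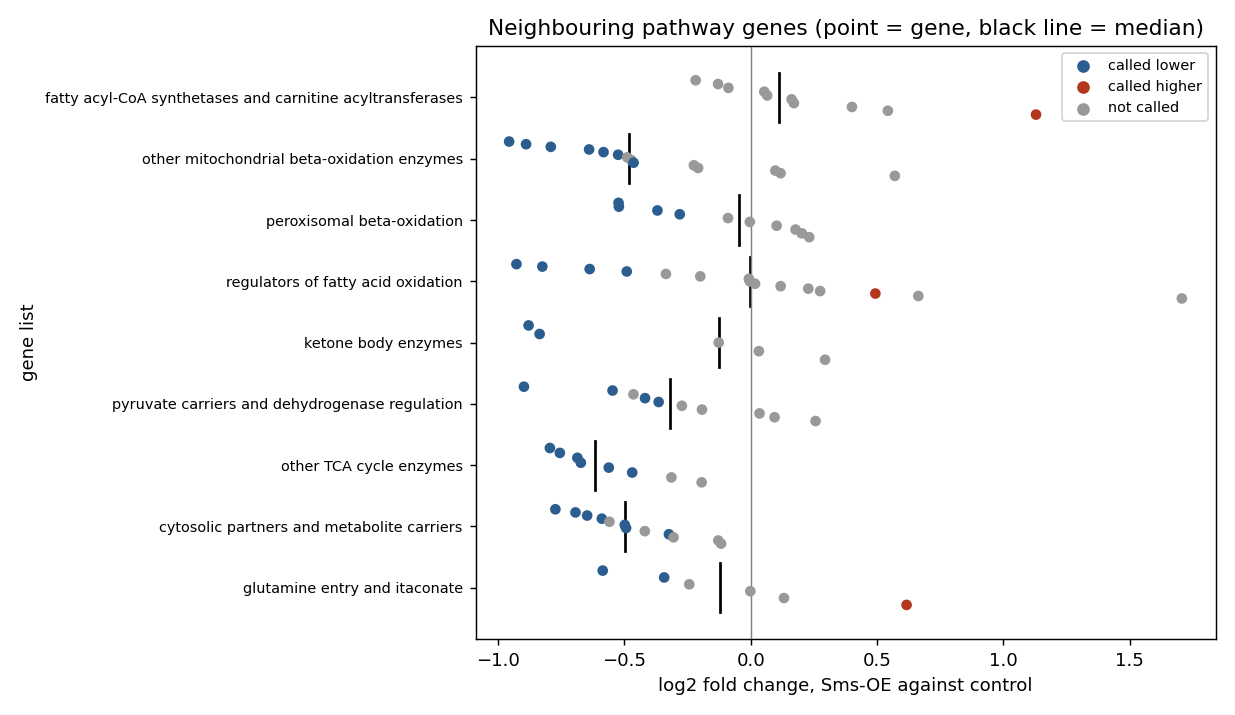
Log2 fold change of the neighbouring pathway genes, 1 point for each gene tested, by list, with colour for the call and a black line at the median of each list. The lists of other TCA enzymes and of cytosolic partners lie below 0 throughout, at medians of -0.62 and -0.50. The medians of acyl-CoA synthetases and of regulators lie near 0, at 0.11 and -0.0035. Their single genes range from -0.22 to 1.13 and from -0.93 to 1.71. The value of 1.71 is that of Prkaa2, which was not called and lay near the floor, at 0.24 CPM in controls and 0.78 in Sms-OE.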

How the data were processed

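RNA of F4/80+ cells was sequenced in 3 control and 3 Sms-OE libraries, prepared with oligo(dT) beads and dUTP strand marking, per the labels' protocols. Tools of the authors, per the submitters' processing notes, include HISAT2 2.2.1 and StringTie 2.1.6, beside cutadapt 1.9, FastQC 0.11.9 and DESeq2. Build, annotation and counting strand were not given in the sources used here. Values are estimated counts, deposited as whole numbers without normalization. More genes held the value 4 than 3 or 5 (1008 against 580 and 352 in control replicate 1), so their counting error is uncertain. Symbols and coordinates came from GENCODE M21 on GRCm38, which matched 55141 of 55401 identifiers. The 260 unmatched rows took up to 0.0125% of a library's counts. Pc and Mmut were found under their other symbols Pcx and Mut, and the marker Ahsp was unmatched.

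The test was edgeR 4.0.16 in R 4.3.3: filterByExpr by group, TMM factors, glmQLFit with the robust option, glmQLFTest, and Benjamini-Hochberg adjustment over 18277 genes at a threshold of 0.05. Standard errors come from the F statistic. Each library's counts were used as 1 replicate. Levels per kilobase use the longest transcript. Lists were described by counts and medians, with no test. The steps were tested on simulated counts.

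Members and lists were chosen with earlier results of these data known. In each role group, values by library are given for up to 3 called genes of smallest p and for the largest mover against the majority. In neighbouring lists up to 3 called genes of smallest p, or else the 2 highest in CPM, and in marker lists the 2 highest in CPM, were eligible to be named, and some of these are not reported here. Alternatives were 3 other scalings, 2 other filters, DESeq2 1.42.0, limma-voom 3.58.1, no robust step, the replicate block, a liver marker covariate, length and GC offsets, rows or libraries left out and other thresholds. Leaving out both haemoglobin-rich libraries was added after seeing the data.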

Additional observations from a re-analysis of the deposited data

How the results depend on the processing

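With the 3 other scalings, the 34 members below 0 remained below 0. The median of the 18 beta-oxidation genes was -0.35 with upper-quartile factors, -0.32 with library size alone, -0.36 with a filter of CPM of at least 1 in 3 libraries and -0.18 with length and GC offsets, and -0.43 to -0.34 when 1 library was left out. With library size alone 2521 genes were higher and 1788 lower, against 2293 and 2615, and 8 beta-oxidation and 14 pyruvate and TCA genes were lower. With the offsets 2 beta-oxidation genes were higher and 7 lower, 13 pyruvate and TCA genes were lower, and their median was -0.35. Leaving out 1 library, so that fewer samples are fitted each time, gave 1366 to 2015 genes higher and 1684 to 2473 lower. The fewest in both directions came without control replicate 2. Beta-oxidation genes were then 0 to 1 higher and 8 to 11 lower, and pyruvate and TCA genes 14 to 17 lower, with a median of -0.56 to -0.47. Without both haemoglobin-rich libraries 690 genes were higher and 694 lower, with 3 beta-oxidation and 6 pyruvate and TCA genes lower and a pyruvate and TCA median of -0.41. At a threshold of 0.01, 1077 genes were higher and 1219 lower, with 0 beta-oxidation genes higher and 7 lower.

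The liver marker covariate, which ran from 0.655 to 1.26 in the controls and from -1.29 to -0.695 in Sms-OE, left 0 genes higher and 0 lower (smallest adjusted p 0.399), hence 0 in each set, and put the pyruvate and TCA median at -0.32 while that of beta-oxidation was -0.39, so the order of both sets turned. Single genes that changed sign with it were Slc25a20 (-0.58), Acadm (0.48), Etfdh (0.099), Idh2 (0.075) and Sucla2 (0.032). Pc ran from -0.38 to 0.041 when 1 library was left out (0.030 without control replicate 1, 0.041 without Sms-OE replicate 2) and turned to 0.15 without both haemoglobin-rich libraries, where Hadh turned to 0.052. The cause was not tested.

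The labels do not say whether the replicate numbers pair the samples. Deviations of same-numbered libraries correlated at 0.31, 0.083 and -0.098, which cannot decide it with 3 libraries in each group. With the replicate number as a block 2117 genes were higher and 2415 lower, with 1 beta-oxidation gene higher and 9 lower and 17 pyruvate and TCA genes lower. Acadm and Eci2 lost their calls. Not every library correlated best with its own number.

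How far depth limits the calls was not tested. Pc, at under 3 CPM, had the lowest counts of the 36.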
